A study of Mus musculus with 7 samples.

Results

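The probes described here are 41 of the 16273 on a mouse array whose log2 ratios were close to 0 in plantaris muscle taken at the end of a run and high in muscle taken in the hours after a 12 h run. They were chosen by measured values: a ratio on all 7 arrays of the series, ratios between -0.3 and 0.3 on both arrays of muscle taken as running ended, and a mean of at least 0.58 (1.49-fold) over the 3 arrays of muscle taken 3, 6 and 12 h after the long run. A ratio was present on all 7 arrays for 9023 probes, and 5106 of these lay within the running band, so the 41 were 0.803% of the probes that could still be chosen. Their values on the 5 arrays used in that choice are a description, with no test. The arrays at 24 h of recovery and after 4 weeks of running took no part in it.

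The plantaris, a hindlimb muscle, was compared between running and untrained mice on 7 arrays with 2 dyes. Each array set pooled RNA of 3 to 5 running mice, in Cy5, against pooled RNA of 8 untrained mice, in Cy3. The running pools came from mice that had run for 3 h (R3h) or 12 h (R12h) and were sampled at once, from mice sampled 3 h (P3h), 6 h (P6h), 12 h (P12h) or 24 h (P24h) after a 12 h run, and from mice that had run over 4 weeks (R4w). There was 1 array per condition, with 1 dye orientation, and the labels describe the control pool in the same words on every array. Strain, age and sex of the mice, the form of running and the time between the last bout of the 4 weeks and sampling are not stated in the labels. Because each animal pool was measured once, no value has a replicate error and no difference below was tested. The same wording makes 1 shared control pool likely. A deviation of that pool at a probe would then enter all 7 values of the probe. Which pool is the numerator is not said in the labels. A positive ratio is likely higher RNA in the running pool, since red over green is the usual order, and all wording on high and low rests on that. A ratio carries no level, so the labelled tissue could not be checked against muscle markers, and fewer cells of a type and less RNA per cell cannot be told apart.

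Skeletal muscle changes its transcription during prolonged exercise and again in the hours after it ends. Immediate early and stress genes are known to respond during contraction, whereas genes of fuel metabolism, mitochondrial biogenesis and tissue repair often reach their highest RNA levels during recovery. A gene at its untrained level when the run ends and high some hours later would have the second kind of time course. Training over weeks is known for slower shifts in metabolic and contractile genes.

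The median log2 ratio of the 41 probes was 0.01 on R3h and 0.17 on R12h. It was then 0.85 on P3h, 0.63 on P6h and 0.78 on P12h, and on the arrays that took no part in the choice it was 0.69 on P24h and -0.08 on R4w. The median was thus still high a day after the run and near 0 after 4 weeks of running. Single probes spread widely around this course. On the arrays of the choice their ratios ran from 0.34 to 1.52 (P3h), from 0.06 to 1.35 (P6h) and from 0.23 to 1.51 (P12h). At 24 h they ran from -0.12 to 1.69, and after 4 weeks of running from -0.59 to 0.44. On all 3 recovery arrays used in the choice, 13 of the 41 reached 0.58 and 37 reached 0.3, as 0.255% and 2.94% of the band did.

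**Figure D1:**
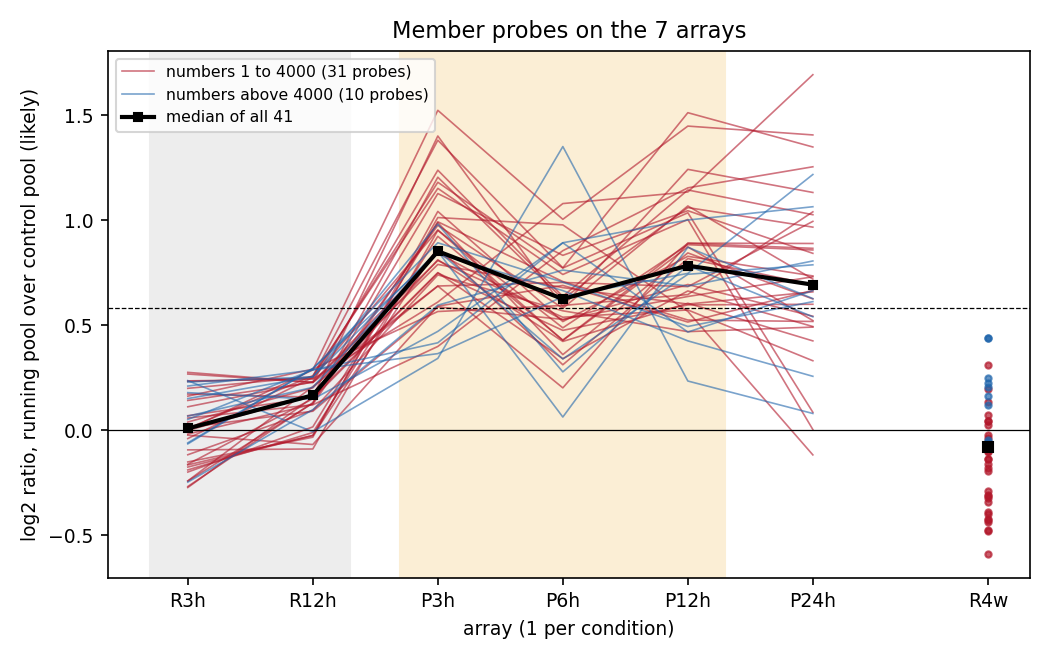
Log2 ratio (running pool over untrained pool, likely direction) of each of the 41 chosen probes (members) on the 7 arrays, 1 line per probe for the single runs and 1 point for R4w, coloured by probe number up to or above 4000, with black squares for the median and a dashed line at 0.58. Grey and yellow shading mark the arrays that chose the probes, where medians are 0.01 and 0.17 and then 0.85, 0.63 and 0.78. The probes spread from -0.12 to 1.69 on P24h and from -0.59 to 0.44 on R4w.

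The band of 0.3 on each side of 0 left room for differences at the end of running. R12h was above R3h in 35 of the 41 probes (49.6% of the band) and above 0 in 34. For 26 of them at least 1 of the 2 running arrays had a ratio of 0.2 or more in size. All 3 recovery arrays exceeded both running arrays in 38 probes (14.8% of the band). These values are those the choice used and are given as a description.

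The choice also cut through a continuous range. A recovery mean of at least 0.58 was found for 429 probes, 4.75% of those with a ratio on all 7 arrays, and 388 of them fell outside the running band. For 380 of the 388 at least 1 running array was above the band, and for 12 at least 1 was below it. The band was missed by no more than 0.1 in 31 of them. Just inside the minimum lay probes 6696 (Cdc42ep5), 2399 (Slc25a26) and 1998 (Krt27), with recovery means of 0.582, 0.584 and 0.585. Just outside it, within the band, lay the unnamed probes 4155 and 3605 at 0.578 and 0.576 and probe 798 (Ppt1) at 0.574. A further 18 probes met the criteria on those arrays where they had a ratio but were listed at 0 on at least 1 array, 17 of them on P6h. The same criteria with the recovery mean at or below -0.58 held for 8 probes.

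**Figure D2:**
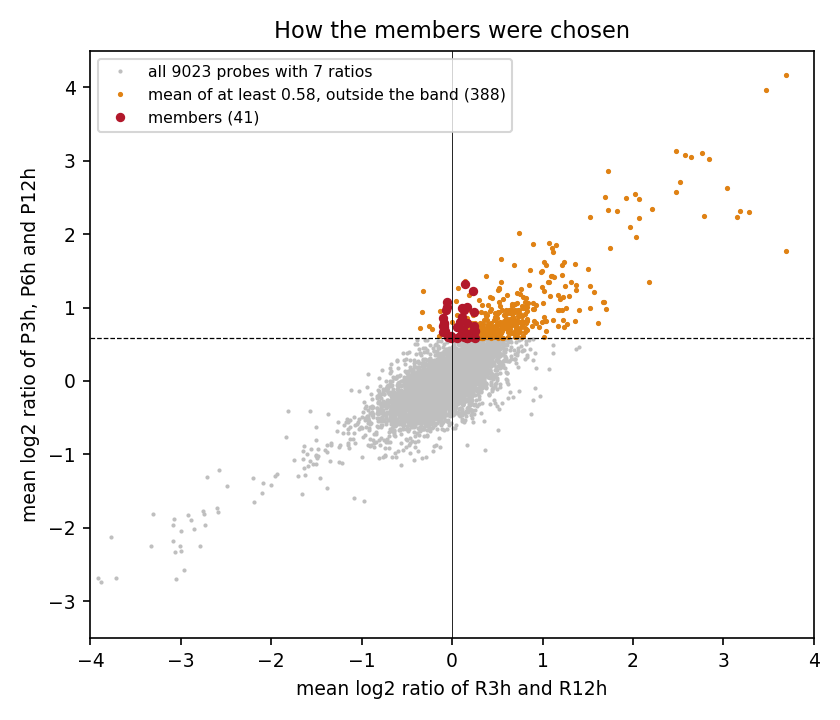
Mean log2 ratio over P3h, P6h and P12h against the mean over R3h and R12h for the probes with a ratio on all 7 arrays, with the 41 chosen probes (members) in red, the 388 outside the band in orange, a dashed line at 0.58 and 2 probes beyond the axis limits. The 41 lie above 0.58 on the vertical axis and near 0 on the horizontal one by choice. Most of the 388 lie to their right, with at least 1 running array above the band in 380, and a few to their left.

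In the platform annotation 31 of the 41 (75.6%) carried a single gene symbol, beside 86.7% of all measured probes, and 10 carried none. These 10 had no sequence accession either, so what they target is not known here. The symbols are labels of probes, since different probes with the same symbol differed in their ratios. What is said of a gene's function is background on the annotated gene, not a statement on what the probe measured.

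The highest recovery means belonged to 2 probes without a symbol. Probe 703 had log2 ratios of 0.0030 and 0.29 as running ended (R3h, R12h), 1.52, 1.004 and 1.45 in the first 12 h of recovery (P3h, P6h, P12h), 1.41 a day after the run (P24h) and -0.29 after 4 weeks of running (R4w). Values of other probes are given in this order. Probe 582 had 0.20 and 0.25, then 1.38, 0.77 and 1.51, then 1.35, and -0.44 after 4 weeks. Both were lowest among the recovery arrays on P6h, still above 1.3 a day after the run and below 0 after 4 weeks.

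Probe 3629, annotated as the olfactory receptor gene Olfr140, followed with -0.27 and 0.16 as running ended, 1.40, 0.59 and 1.24 in recovery, 1.13 at 24 h and -0.43 after 4 weeks. Probe 422 is annotated as Acp6, a lysophosphatidic acid phosphatase, and had 0.11, 0.23, 1.24, 0.64, 1.14, 1.03 and -0.14. Probe 1777 is annotated as Fkbp1b, a protein that binds ryanodine receptor calcium channels, and had -0.24, 0.13, 1.13, 0.83, 1.05, 0.84 and -0.40. The unnamed probe 361 had -0.27, 0.13, 1.21, 0.63, 1.06, 0.97 and -0.32. These 4 shared the course of the leading probes: P3h and P12h above 1, P6h lower, P24h at or above 0.84 and R4w below 0. The values as running ended and after 4 weeks moved when the median of neighbouring probe numbers was subtracted: R12h became 0.66 for probe 703 and 0.61 for probe 422, and their R4w became 0.02 and 0.09.

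A pair of probes with nearly the same values left this course at 24 h. Probe 1737, annotated as Kpna2, an importin alpha subunit of nuclear protein import, had -0.04 and 0.25 as running ended, 1.18, 0.77 and 1.04 in recovery, 0.08 at 24 h and -0.14 after 4 weeks. Probe 177, annotated as the calcium-dependent protease gene Capn5, had 0.0078, 0.26, 1.15, 0.74, 1.004, 0.0026 and -0.16. They differed by at most 0.08 on any array, the closest match among the 41 by root mean square difference (0.04 over 7 arrays). Both were high until 12 h and at the level of the untrained pool at 24 h. Probe 2545, annotated as Ercc8, a gene of transcription-coupled DNA repair, had -0.18, -0.03, 1.01, 0.98, 0.57, -0.12 and -0.06, and was the lowest of the 41 on P24h.

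Other probes were higher at each later time. Probe 3351 is annotated as the zinc finger gene Zfp93 and had 0.23 and 0.24 as running ended, 0.61, 1.08 and 1.13 in recovery, 1.69 at 24 h and 0.20 after 4 weeks. Probe 2432 is annotated as Lrmda and had 0.06, 0.12, 0.40, 0.85, 1.15, 1.25 and 0.13. The unnamed probe 10435 had 0.18, 0.15, 0.47, 0.89, 1.001, 1.06 and 0.44. Probe 6696, annotated as Cdc42ep5, an effector of the small GTPase Cdc42, had 0.05, 0.29, 0.36, 0.64, 0.75, 1.22 and 0.44. These are 4 of the 5 probes with an unbroken order from P3h to P24h. The fifth is probe 2892, annotated as the interleukin receptor gene Il21r, with 0.57, 0.59, 0.65 and 1.04. Among all 9023 measured probes 477 had that order.

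Highest in recovery on P6h were 5 of the 41. The unnamed probe 11303 had 0.24 and -0.0083 as running ended, 0.34, 1.35 and 0.23 in recovery, 0.08 at 24 h and 0.12 after 4 weeks, so its choice rested on 1 array. Probe 13583, annotated as the fibrillar collagen gene Col27a1, had 0.42 on P3h, 0.89 on P6h and 0.47 on P12h. Probe 13267, unnamed, had 0.60, 0.76 and 0.69 on those arrays. P6h was also the array with the most probes listed at 0 (41.7% of all probes, against 16.1% on P3h).

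By role of the annotated gene the other named probes were mixed. Cell surface receptors of immune signalling were annotated at 4 probes: C5ar1 (complement C5a receptor, probe 533) with a recovery mean of 0.69, Klra8 (natural killer cell receptor, probe 14512) with 0.70, Ltbr (lymphotoxin beta receptor, probe 1583) with 0.61 and Il21r with 0.60. A day after the run their probes stood at 0.66, 0.61, 0.43 and 1.04. A second probe of the same sequence accession had a recovery mean of -1.06 for C5ar1 and 0.12 for Il21r. Klra8 and Ltbr had no second probe to compare. The share of such receptors on the array was not counted. The annotated genes of nuclear and RNA processes besides Kpna2 and Ercc8 were Rnps1, of splicing and the exon junction complex, with a recovery mean of 0.60 at probe 1605, Banf1, of the nuclear envelope, with 0.69 at probe 266, and Eif3m, of translation initiation, with 0.64 at probe 13256. Cdc16, a subunit of the anaphase-promoting complex, had 0.74 at probe 2686, and Katna1, of the microtubule-severing enzyme katanin, had 0.77 at probe 2874. Secreted or membrane-bound enzymes and guidance factors included Ace, the angiotensin-converting enzyme (0.65 at probe 13008), and Slit3 (0.59 at probe 394). Ppic, the secretory pathway cyclophilin C, had a recovery mean of 0.87 at probe 1814. Rrbp1, a ribosome-binding protein of the endoplasmic reticulum, had 0.67 at probe 2249, and Pigm, a mannosyltransferase of GPI anchor synthesis, had 0.69 at probe 2404. The Pigm probe had nearly level values of 0.69, 0.70 and 0.68 in the first 12 h of recovery, 0.99 at 24 h and -0.42 after 4 weeks. Slc25a26, the mitochondrial carrier of S-adenosylmethionine, had 0.59, 0.53 and 0.64, then 0.73 and -0.18, at probe 2399. Arfip2 (arfaptin), Necab3 and Plcl2, a phospholipase C-like protein, had recovery means of 0.80, 0.75 and 0.73 at probes 2474, 609 and 1310. No role was thus shared by most of the named probes. Several annotated genes are best known from other tissues than muscle, such as Olfr140 from olfactory neurons, Krt27 from hair follicles and Plcz1 from sperm. The Plcz1 probe, 5514, had 0.85 on P3h, 0.06 on P6h and 0.87 on P12h, the lowest P6h value of the 41. The unnamed probes not described above, 2089, 13259, 1853 and 803, had recovery means of 0.75, 0.68, 0.64 and 0.61 and P24h values of 0.87, 0.54, 0.33 and 0.60.

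Peak time differed between the probes. Among P3h, P6h and P12h the highest ratio was on P3h for 26 of the 41, on P6h for 5 and on P12h for 10. These are 63.4%, 12.2% and 24.4%. Among the 388 probes outside the band and as high in recovery, the shares were 58.2%, 28.4% and 13.4%, so a peak on P3h was common there too. With P24h counted too, the highest ratio of the 41 was on P3h for 26, on P6h for 3, on P12h for 4 and on P24h for 8. The 10 probes with their recovery peak on P12h had P24h values between 0.63 and 1.69, with a median of 1.05. The 26 that peaked on P3h had P24h values between -0.12 and 1.41, with a median of 0.61. P6h was the lowest of the 3 in 25 of the 41 (61.0%), and in 3786 of all 9023 measured probes. The order of P3h and P12h turned with the scaling: with the arrays brought to a common spread before the choice, 31.2% of the chosen probes peaked on P3h and 60.4% on P12h. Peak times come from the arrays that chose the probes, and their error is not known.

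At or above 0.58 were 35 of the 41 on P3h, 24 on P6h and 32 on P12h, where 7.74%, 5.45% and 4.38% of all measured probes were. Nothing is read from these counts, since the same arrays made the choice. On P24h, which did not, 28 of the 41 (68.3%) reached 0.58, where 8.38% of all measured probes and 5.76% of those in the running band did. The median P24h ratio was 0.69 for the 41, 0.06 for the probes in the band and 0.04 for all measured probes. P24h was at least 0.3 in 36 of the 41 (25.2% of all measured probes and 23.9% of the band) and at least 1 in 9 (1.4% and 0.353%). It was above R4w in 39 of the 41 (54.7% and 53.6%). It was above P12h, which made part of the choice, in 15 (52.7% and 55.2%). The share at 24 h was far above the background of the array, but it was also high among the probes that were outside the running band and as high in recovery: 220 of those 388 (56.7%) reached 0.58 on P24h, with a median of 0.67. P24h shares the spots, and likely the control pool, with the arrays that chose the probes. The P24h ratios also spread more widely over the array than those of the other times. With all arrays brought to a common spread, 33.3% of the probes then chosen reached 0.58 on P24h, against 3.49% of all measured probes and 1.61% of those in the band.

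After 4 weeks of running none of the 41 reached 0.58, and 1 was at or below -0.58, where 1.25% and 2.59% of all measured probes were. A count of 0 among 41 cannot be told from a background of 1.25%. Within 0.3 of 0 on R4w were 26 of the 41, where 7203 of the 9023 measured probes and 4515 of the 5106 in the band were. The median near 0 thus does not describe every probe. The lowest was probe 1770, annotated as the orphan receptor gene Gpr37l1, with -0.24 and 0.21 as running ended, 0.69, 0.20 and 0.89 in recovery, 0.89 at 24 h and -0.59 after 4 weeks. Next came probes 1605 (Rnps1) and 2874 (Katna1), both at -0.48. The highest on R4w were probes 10435 and 6696 (Cdc42ep5), both at 0.44, and probe 394 (Slit3) at 0.31. R4w was below both running arrays in 28 of the 41 (68.3%), where 35.8% of all measured probes and 37.5% of the band were, and above both in 4, where 36.6% and 36.1% were. The running arrays made part of the choice, and both they and R4w were offset among the low probe numbers described next. Among the 388 probes outside the band and as high in recovery, the R4w median was 0.17 and 40 (10.3%) reached 0.58.

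The place of the probes in the array's numbering moved with the choice. Of the 41, 31 (75.6%) carried probe numbers up to 4000, a range with 23.6% of the measured probes and 16.2% of those in the running band. They were 3.74% of the band probes there and 0.234% of the band probes with higher numbers. The bound of 4000 was set after the values were seen. What the numbers stand for, whether print order, source plate or otherwise, is not stated in the labels.

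The arrays themselves differed over this range. Over the 2130 probes numbered up to 4000 with a ratio on all 7 arrays, the median was -0.21 on R3h, -0.24 on R12h and -0.20 on R4w. It lay between -0.03 and 0.04 on P3h, P6h, P12h and P24h. Over the 6893 with higher numbers all 7 medians lay between -0.0017 and 0.05. Over all probes with a ratio on the array in question, the low-number medians were -0.28 on R3h, -0.28 on R12h and -0.21 on R4w. So within the low numbers a probe at 0 on the running arrays stood above most of its neighbours there, which was not the case on the recovery arrays. A recovery mean of at least 0.58 was about as frequent in both ranges, at 5.26% and 4.60% of the measured probes.

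With the median of the neighbouring probes that had a ratio subtracted on each array, the 41 had medians of 0.21 on R3h, 0.40 on R12h, 0.69 on P24h and 0.09 on R4w. Their recovery mean still reached 0.58 in 39 of the 41, but 14 stayed within the running band, and R12h was above 0.3 in 27. Applied to the values after this subtraction, the criteria held for 29 probes, 13 of them among the 41. These 13 are probes 3629 (Olfr140), 2545 (Ercc8), 2474 (Arfip2), 2874 (Katna1), 2686 (Cdc16) and 1605 (Rnps1) among the low numbers, and 10435, 13267, 13259, 11303, 13008 (Ace), 5514 (Plcz1) and 6696 (Cdc42ep5) among the rest. The leading probes 703 and 582 were not among them. High values in recovery thus held for nearly all of the 41, while a ratio near 0 at the end of running held for about 1 in 3 of them. The part of the numbering in the result was not tested.

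**Figure D3:**
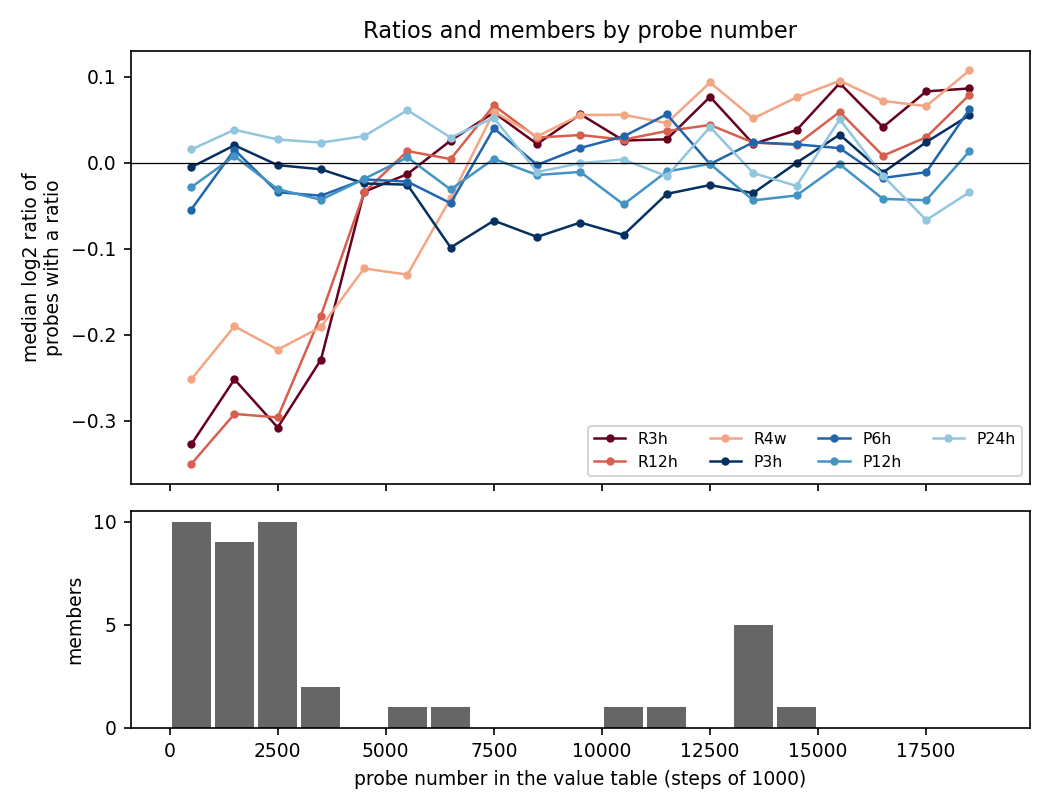
Median log2 ratio along the probe numbers over all probes with a ratio on the array in question (upper panel), and the number of chosen probes (members), both in steps of 1000 numbers. The R3h, R12h and R4w medians lie below 0 up to number 4000, where 31 of the 41 probes fall.

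The value at 24 h was similar in both ranges. On P24h 21 of the 31 low-numbered probes (67.7%) reached 0.58, where 10.6% of the band probes of that range did, and 7 of the 10 others (70.0%) did, where 4.82% did. On R4w the low-numbered probes had a median of -0.16, beside -0.13 for the band there, and the other 10 had 0.18, beside 0.04. The R4w median of the 41 near 0 thus combined a median below 0 in the low numbers with one above 0 in the rest.

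**Figure D4:**
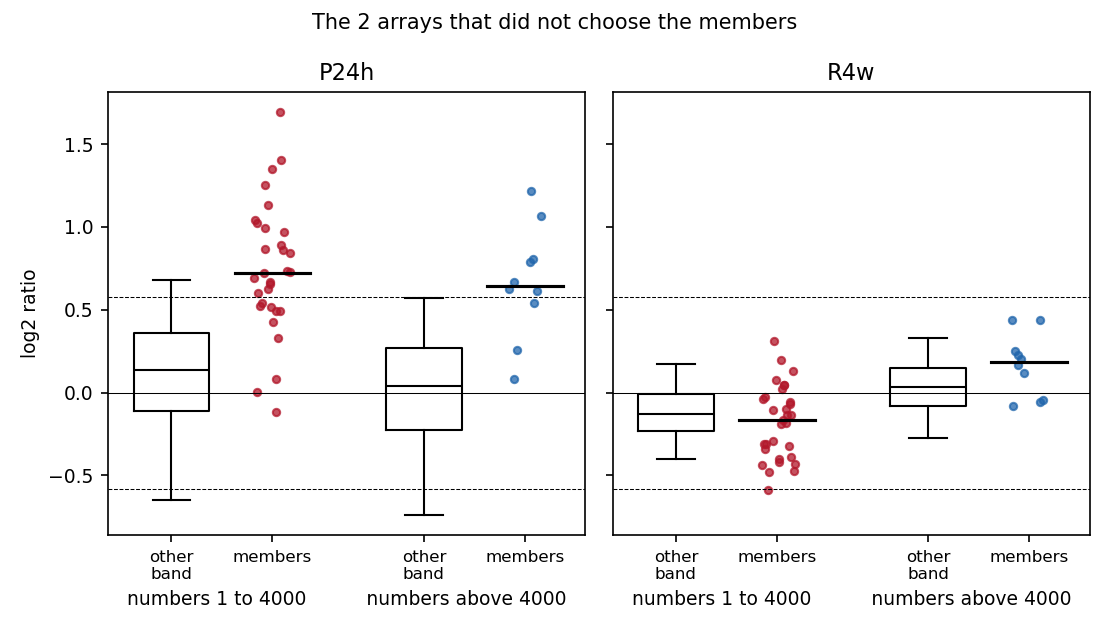
Log2 ratios on P24h and R4w, the arrays that took no part in the choice, for the 41 chosen probes (members, points with a bar at their median) beside the other probes in the running band (boxes from the lower to the upper quartile with the median, whiskers from the 5th to the 95th percentile), by probe number; dashed lines mark 0.58 and -0.58. On P24h the chosen probes have medians of 0.72 and 0.65, above those of 0.13 and 0.04 of the other band probes, and on R4w medians of -0.16 and 0.18 beside -0.13 and 0.04.

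Other probes with the same symbol were on the array for 17 of the 41, 19 probes in all, of which 16 had a ratio on at least 1 of P3h, P6h and P12h. The recovery means of these 16 lay between -1.06 and 0.33, with a median of 0.00, 8 above 0 and 8 below. The median over all measured probes was 0.00014. None of the 16 reached 0.58, where 4.75% of all measured probes did. An absence among 16 cannot be told from that share. The 41 were chosen for high values and a probe of the same symbol was not, so some gap follows from the choice. The highest was probe 6033 at 0.33, the partner of probe 1814 (Ppic). In 5 cases both probes carried the same sequence accession. For Katna1 the recovery means were 0.77 at the chosen probe and 0.20 at the other, for Plcl2 0.73 and 0.06, for C5ar1 0.69 and -1.06, for Il21r 0.60 and 0.12, and for Gpr37l1 0.59 and -0.05. The second C5ar1 probe, 2878, was below 0 on all 7 arrays, from -0.80 on P3h to -1.88 on R12h. For these 16 symbols the high recovery values were thus at 1 probe each, with 1 or 2 recovery arrays behind some of the other probes. For the remaining 25 of the 41 there was no other probe of the same symbol with a recovery ratio to compare.

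**Figure D5:**
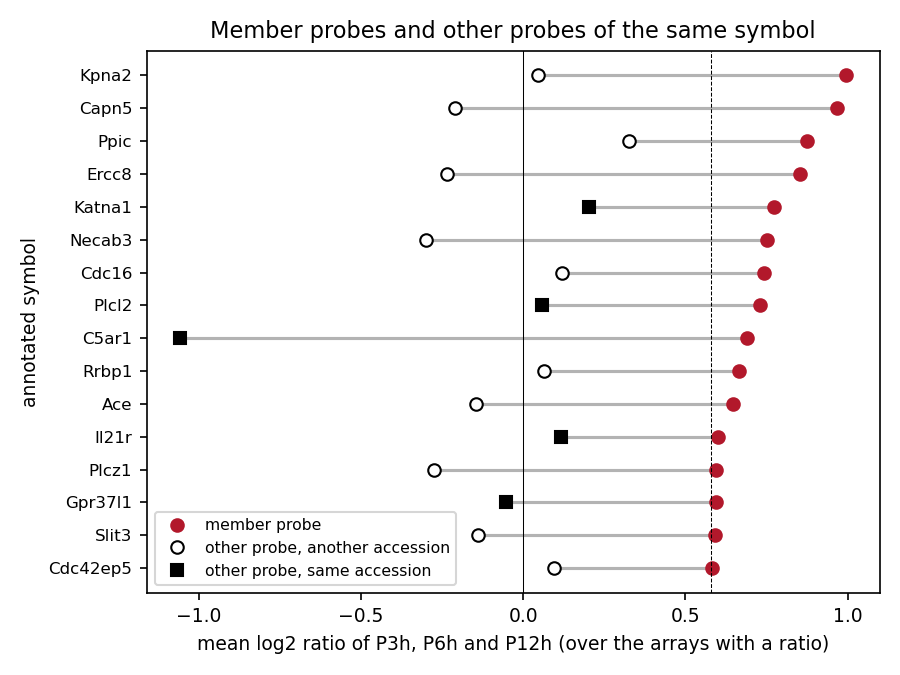
Mean log2 ratio over the recovery arrays for the chosen probes (members, red) and for the 16 other probes that carry the same symbol (open circles, or squares where the sequence accession is the same), joined by lines; a dashed line marks 0.58. The chosen probes lie at or above 0.58 by choice, and the others between -1.06 and 0.33.

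None of the 41 carried a symbol from the 19 gene lists for muscle, exercise and other cell types, which hold 296 symbols, 350 probes, 181 of them with a ratio on all 7 arrays and 92 of these in the running band. At 0.803% of the band, fewer than 1 of 92 would be a chosen probe at the background rate, so the absence shows nothing about the lists. A recovery mean of at least 0.58 was found for 13 of the 181 and one of at most -0.58 for 5, where 4.75% and 2.64% of all measured probes had these. Among genes known to respond in muscle after endurance exercise, 11 probes were measured, with a median recovery mean of 0.03. None of the 11 reached 0.58, and 1 was at or below -0.58, probe 3548 annotated as the cell cycle inhibitor gene Cdkn1a, at -1.64. That probe was below 0 on all 7 arrays, already at -0.66 on R3h and -1.28 on R12h.

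Markers of other cell types gave few high values. Of 62 probes on the 5 marker lists 31 were measured on all 7 arrays, and their median recovery mean was 0.07. For macrophages and other leukocytes, 13 probes had a median recovery mean of 0.01, with 2 at or above 0.58 (S100a8 and Mpo, both of neutrophils) and 1 at or below -0.58 (C1qa, of macrophages). As running ended (R3h, R12h) the Mpo probe was already at 0.93 and 1.79 and the C1qa probe at -3.06 and -2.71. The S100a8 probe was at -0.44 and 0.17. The medians on each array lay between -0.15 (R4w) and 0.35 (P24h) for 5 endothelial probes and between 0.02 (R4w) and 0.46 (P12h) for 5 adipocyte probes. The endothelial medians were 0.27, 0.31 and 0.23 on P3h, P6h and P12h, beside -0.04 on R3h and 0.10 on R12h. The adipocyte medians were 0.44, 0.43 and 0.46, beside 0.20 and 0.16. Both were thus higher on the recovery arrays than at the end of running, as the chosen probes were. On no other marker list did the P3h, P6h and P12h medians all exceed both running medians. They were -0.04, -0.08 and 0.0032 for the 13 leukocyte probes, beside -0.03 and -0.06 on R3h and R12h. For 5 erythroid probes they were 0.19, 0.16 and 0.07, beside 0.22 and 0.03. For 3 Schwann cell and nerve probes they were -0.20, -0.19 and 0.06, beside -0.03 and -0.28. Beyond the marker lists, the same order was found for extracellular matrix, cytokines and glucocorticoid responsive genes. It was also found for oxidative phosphorylation and for ribosomal proteins. For 20 extracellular matrix probes the medians were 0.15, 0.22 and 0.16, beside 0.0040 and 0.07. The order was thus not particular to endothelial and adipocyte markers. The part of these cell types in the result was not tested.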

How the data were processed

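The authors deposited 1 value per probe and array, used here as the log2 ratio of the Cy5 over the Cy3 channel. Per the labels, Cy5 held the running pool and Cy3 the untrained pool. The log base was read from the values. The direction is only likely, and how the authors centred and background-corrected the values is not given in the sources used here. Values within 1e-12 of 0 were taken as no ratio. No intensities were used, so the depth behind a ratio is unknown, and precision is limited by the number of arrays.

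Selection ran probe by probe in Python 3.11.15 with pandas 2.3.3, numpy 2.4.6 and scipy 1.17.1. Its code was run on simulated data with planted probes and little noise, which checks the code and not the result. Symbols came from the platform annotation, updated by gene identifier (13731 probes with 1 symbol, 13687 of them updated, 52 with several, 2490 with none). Local medians are over the 201 nearest rows. With 1 array per condition there is no test. Counts are set beside those of all measured probes.

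The criteria, members and lists were chosen with earlier results of these data known. Probes are named by rank: the 10 highest recovery means, the 3 highest at each peak time, the 5 highest and 5 lowest on P24h and on R4w, the 3 on each side of 0.58, list genes and shared symbols. Other members are named as examples of annotated roles, chosen after their values were seen, as were the probes called high or low on a list. Alternatives changed the band, the minimum, zeros, scaling and arrays. The 2 on probe numbers were added after seeing the data.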

Additional observations from a re-analysis of the deposited data

How the results depend on the processing

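The number of chosen probes followed the criteria. It was 15 with a band of 0.2, 72 with a band of 0.4, 16 with a minimum of 0.75, 75 with P6h left out and 10 with probe numbers up to 4000 left out, against 41. By construction it could only fall with the narrower band, the higher minimum or the numbers left out, and only rise with the wider band. With P6h left out the direction was not fixed: with P3h or P12h left out the number was 39 or 46. Under the other alternatives it lay between 29 and 52. The share of chosen probes at or above the threshold on P24h, 68.3%, was 33.3% with arrays scaled to a common spread, 46.7% with P6h left out, 87.8% with the threshold at 0.3 (25.2% of all measured probes) and 22.0% with it at 1 (1.4%). The median on P24h was 0.91 with the minimum at 0.75, 0.50 with scaled arrays and 0.55 with P6h left out, against 0.69. The median on R4w was 0.18 with numbers up to 4000 left out and 0.0857 for the same probes with local medians subtracted, against -0.08. Both lie above 0 where the main value lies below, so the R4w median has no settled sign. Except by construction, the cause was not tested. No other alternative moved these 4 results by more than 1.5 times for the number, past the 95% exact binomial interval for the share, or by more than 0.1 for a median. Of 74 other values recomputed, on peak times and R4w shares, 56 kept within these limits and 18 moved. The binomial interval counts probes of a single array, so it is only a yardstick and holds no error between arrays or animals. No paired analysis was possible because each condition has 1 array and no result comes from a test. No depth is known. A single array per condition and what is likely 1 control pool limit every value.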
